A study of Homo sapiens with 40 samples.

Results

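The H3K27ac and H3K4me3 peaks of chromosomes 2 and 12 were examined in A549 cells with and without SETDB1. The members were every row on these chromosomes in the deposited control and SETDB1 knockout lists of both marks, 33228 of 240961 rows in all, and 201234 rows lay on the other 20 autosomes. The chromosomes were chosen by earlier results of these data, namely their RNA-seq fold changes and their peak numbers in both genotypes, so the differences in their peaks and transcripts are given as descriptions, with no test of the choice.

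A549 is an established line of human lung adenocarcinoma cells, grown here in DMEM with serum. The control group was labelled only as control, and in the knockout group SETDB1 had been disrupted with CRISPR/Cas9 and guide RNAs cloned into the plasmid PX458; whether they were 1 clone or a pool is not given in the sources used here. The 40 samples comprised ChIP-seq of H3K27ac, H3K4me3, H3K27me3, H3K9me3 and CTCF with 2 libraries per genotype, inputs, RNA-seq with 3 libraries per genotype and Hi-C with 2. Each mark and genotype had 1 peak list, so values from the lists carry no replicate error, and the depth behind them is unknown; the label of the knockout H3K4me3 libraries lacks a digit of the mark's name.

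H3K27ac is acetylation of histone H3 found at active promoters and enhancers, and H3K4me3 is trimethylation that marks active or poised promoters. SETDB1 is a histone methyltransferase that deposits H3K9me3, the mark of silent chromatin, over retrotransposons and zinc finger gene clusters. When a whole chromosome is gained or lost in a cell population, marks and transcripts along its entire length tend to move in the same direction. A change in regulation can be limited to single genes or domains. Which of these holds here was not tested.

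The targeted gene was read first. SETDB1 (ENSG00000143379) was at 37.5, 39.6 and 38.7 CPM (counts scaled to library size) in the 3 control libraries and at 23.4, 21.2 and 21.1 CPM in the 3 knockout libraries. The groups did not overlap, and the log2 fold change was -0.82 (SE 0.060). RNA-seq libraries held 18065062 to 48364919 counts.

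On chromosome 2, H3K27ac peaks were fewer in the knockout list and on chromosome 12 they were more. Chromosome 2 held 4990 control and 4319 knockout H3K27ac peaks, 8.95% and 7.33% of each list. Its log2 ratio of knockout to control peak number was -0.21 (95% Wilson interval -0.27 to -0.15, counting error only), and the covered length went from 9.60 to 8.29 Mb. Chromosome 12 went the other way, from 3092 to 3742 peaks (log2 ratio 0.28, 0.21 to 0.34) and from 6.02 to 8.06 Mb. The other 20 autosomes together went from 46436 to 49351 peaks (log2 ratio 0.088). Set against them, the log2 ratio was -0.30 (-0.36 to -0.23) on chromosome 2 and 0.19 (0.12 to 0.26) on chromosome 12 for peak number, and -0.36 and 0.27 for covered length.

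Neither chromosome lay alone at the end of the range of peak number. Among 22 autosomes ordered from the lowest ratio, chromosome 2 was at place 2 for H3K27ac number and place 1 for length, and chromosome 12 was at place 20 for both. Chromosome 17 had the lowest number ratio (-0.21) and chromosome 4 the highest (0.48) of the other autosomes.

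H3K4me3 lists differed more in size, with 56854 control and 69459 knockout peaks. Chromosome 2 went from 4697 to 5267 H3K4me3 peaks (log2 ratio 0.17, 0.11 to 0.22) and from 8.06 to 8.29 Mb, a smaller rise than on the other 20 autosomes (0.29). Chromosome 12 went from 3023 to 4098 peaks (0.44, 0.37 to 0.51) and from 5.42 to 6.91 Mb. Relative to the other autosomes, the number ratios were -0.12 and 0.15 and the length ratios -0.16 and 0.14. Chromosome 2 was at place 6 of 22 from the lowest for H3K4me3 number and place 2 for length, and chromosome 12 at places 21 and 19. Relative to the other autosomes, chromosome 2 was low and chromosome 12 high for both marks, while the absolute H3K4me3 number was higher in the knockout list on both.

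Each chromosome was then divided into 10 Mb windows, 25 on chromosome 2 and 14 on chromosome 12, in which a peak was counted by its midpoint. The baseline was the median window of the other 20 autosomes, a log2 number ratio of 0.12 for H3K27ac and 0.25 for H3K4me3. For H3K27ac, 23 of 25 chromosome 2 windows lay below the baseline in peak number, against 51.7% of all 286 autosomal windows. On chromosome 12, 12 of 14 windows lay above it, against 47.9%. Single other autosomes were as uniform: their share below ran from 5.26% (chromosome 4) to 100% (chromosome 17). For H3K4me3 that share ran from 10.5% (chromosome 4) to 100% (chromosome 22). Since the rule used this contrast, nothing is read from these shares. Covered length gave 23 of 25 windows below (51.4% of all windows) and 13 of 14 above (48.3%). For H3K4me3, 19 of 25 windows of chromosome 2 were below in number (50.7%) and 11 of 14 of chromosome 12 above (49%); in length these were 21 of 25 (50.7%) and 13 of 14 (49%). The median width of a window's peaks split more evenly: 13 of 25 chromosome 2 windows were below for H3K27ac (49.7%) and 15 of 25 for H3K4me3 (51.7%), and 8 of 14 (50%) and 4 of 14 (47.9%) chromosome 12 windows were above.

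The size of the window ratios was of interest for whether a few windows carry the difference. On chromosome 2 the H3K27ac number ratio ran from -0.67 to 0.23 with a median of -0.20, and on chromosome 12 from 0.032 to 0.79 with a median of 0.28. Windows at least 1.2-fold below the baseline were 15 of 25 on chromosome 2 (15.7% of all windows) and 0 of 14 on chromosome 12. Windows at least 1.2-fold above it were 0 of 25 and 4 of 14 (20.6%). The share was larger on chromosome 17, with 8 of 9 windows at least 1.2-fold below. Chromosome 4 had 14 of 19 windows at least 1.2-fold above. The interquartile range of the window ratios was 0.27 on chromosome 2 and 0.24 on chromosome 12, beside a median of 0.25 over the other 20 autosomes (lowest 0.046, highest 0.50). For H3K4me3 the interquartile ranges were 0.23 and 0.36, beside 0.22. H3K4me3 windows at least 1.2-fold below their baseline were 6 of 25 on chromosome 2 (8.04%), and those at least 1.2-fold above were 2 of 25 on chromosome 2 and 7 of 14 on chromosome 12 (17.1%). By covered length, 18 of 25 H3K27ac windows (17.1%) and 5 of 25 H3K4me3 windows (2.1%) of chromosome 2 were at least 1.2-fold below, and 6 of 14 (20.3%) and 5 of 14 (16.1%) of chromosome 12 at least 1.2-fold above. Median width passed 1.2-fold in few windows: on chromosome 2, 3 of 25 were below (4.55%) and 0 of 25 above (1.05%) for H3K27ac, and 1 of 25 below (3.5%) and 1 of 25 above (1.4%) for H3K4me3, and on chromosome 12 there were 0 of 14 for either mark.

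**Figure D1:**
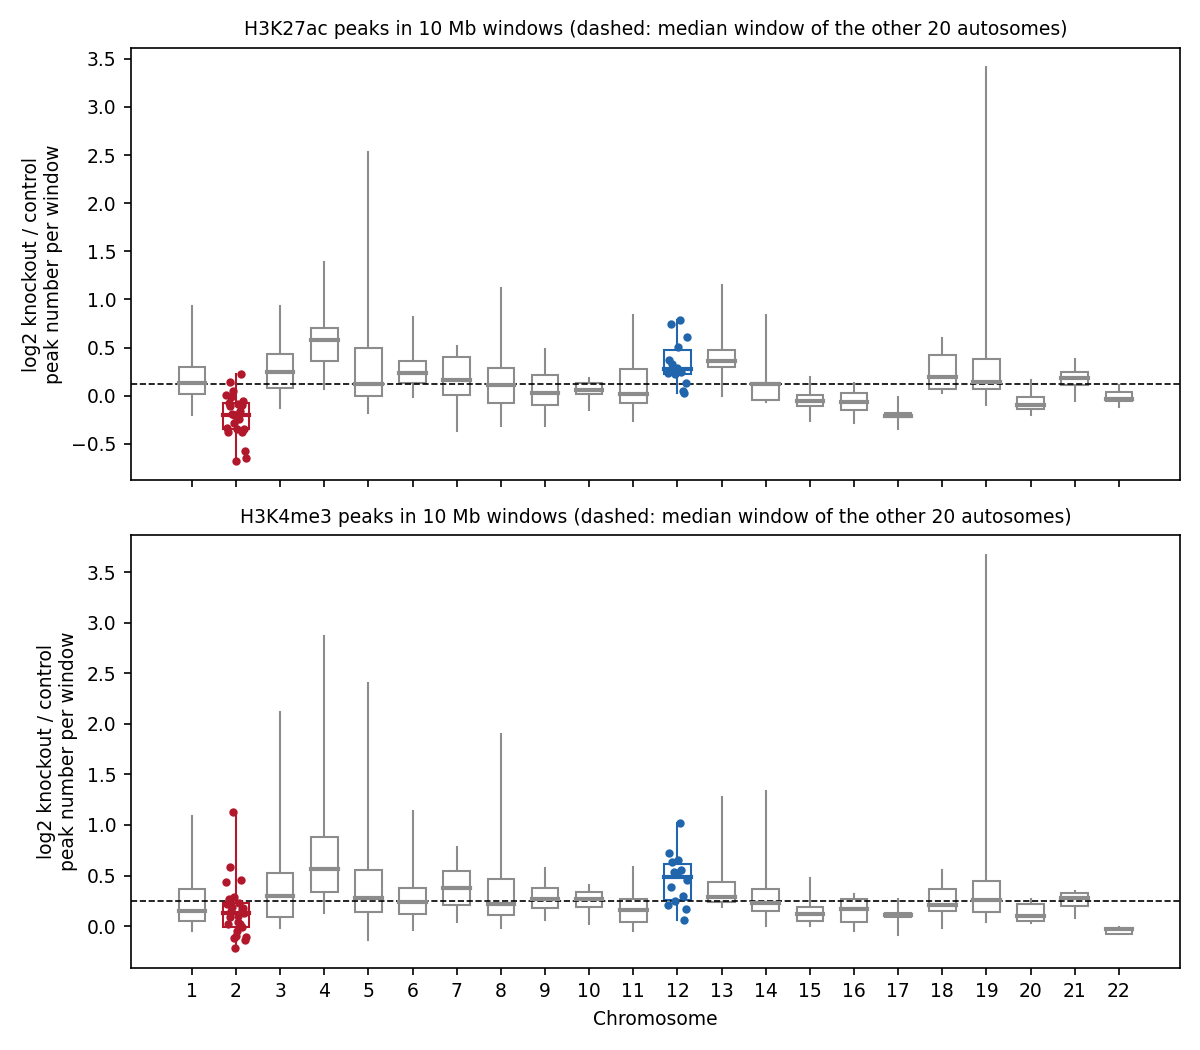
Log2 ratio of knockout to control peak number in 10 Mb windows of each autosome for H3K27ac (top) and H3K4me3 (bottom); boxes span the quartiles, the thick line is the median, thin lines reach the lowest and highest window, and points are the windows of chromosome 2 (red) and chromosome 12 (blue). The H3K27ac windows of chromosome 2 had a median of -0.20 and those of chromosome 12 a median of 0.28, with the dashed baseline at 0.12.

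Windows rich and poor in peaks do not share 1 baseline: on the other autosomes the median H3K27ac ratio was 0.37, 0.16 and -0.057 in windows with few, middling and many peaks. Against the windows of the same peak number class, a comparison added after these values were seen, 24 of 25 chromosome 2 windows were below in number and 25 of 25 in length, and 0 of 14 chromosome 12 windows were below in either, where by construction about 49.8% of the other autosomes' windows are. For H3K4me3, 18 of 25 and 20 of 25 chromosome 2 windows were below in number and length, and 2 of 14 and 1 of 14 of chromosome 12. For H3K27ac, the 6 chromosome 2 windows with few peaks lay 0.61 below their class, the 13 middling ones 0.34 below and the 6 with many peaks 0.18 below. On chromosome 12 the differences were 0.24, 0.26 and 0.29 above, in 1, 6 and 7 windows. For H3K4me3 the differences of chromosome 2 were -0.35, -0.039 and -0.061. Relative to its class, the H3K27ac difference on chromosome 2 was therefore larger where peaks were sparse, and on chromosome 12 it hardly varied. The medians of chromosome 2 itself were nearly flat, -0.24, -0.18 and -0.24, so its gradient came from the class baseline. Those of chromosome 12 fell with that baseline, 0.61, 0.42 and 0.23. Classes were cut on control plus knockout peaks, so the compared numbers enter them.

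At a finer grain of 1 Mb, chromosome 2 held bins of both directions and most chromosome 12 bins had more peaks. Of 224 chromosome 2 bins with an H3K27ac peak, 119 had fewer and 82 more peaks in the knockout list (31.4% and 60.8% of all autosomal bins). Of 126 chromosome 12 bins, 18 had fewer and 100 more. For H3K4me3, 77 of 231 bins on chromosome 2 and 15 of 130 on chromosome 12 had fewer peaks (22.6% of all autosomal bins), and 125 and 112 had more (68.6%).

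Each chromosome was also divided at the stretch without compartment values, which stands in here for the centromere. On chromosome 2 (gap at 91.8 to 95.6 Mb) the H3K27ac number ratio was -0.12 (-0.21 to -0.031) before the gap and -0.28 (-0.36 to -0.20) after it, with intervals that overlapped only between -0.21 and -0.20. The H3K4me3 number ratio on chromosome 2 was 0.30 (0.21 to 0.39) before the gap, beside 0.29 on the other autosomes, and 0.077 (0.0040 to 0.15) after it, and the length ratios were 0.16 and -0.040. By these totals, the low H3K4me3 number of chromosome 2 was on the side after the gap. The side before it holds the 80 to 90 Mb window, with 121 control and 265 knockout peaks, which raises its ratio. No ratio without that window was taken, so the low number is not placed on 1 side. On chromosome 12 (gap at 34.6 to 38.8 Mb) H3K27ac was 0.38 and 0.24 and H3K4me3 0.47 and 0.42, with overlapping intervals.

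**Figure D2:**
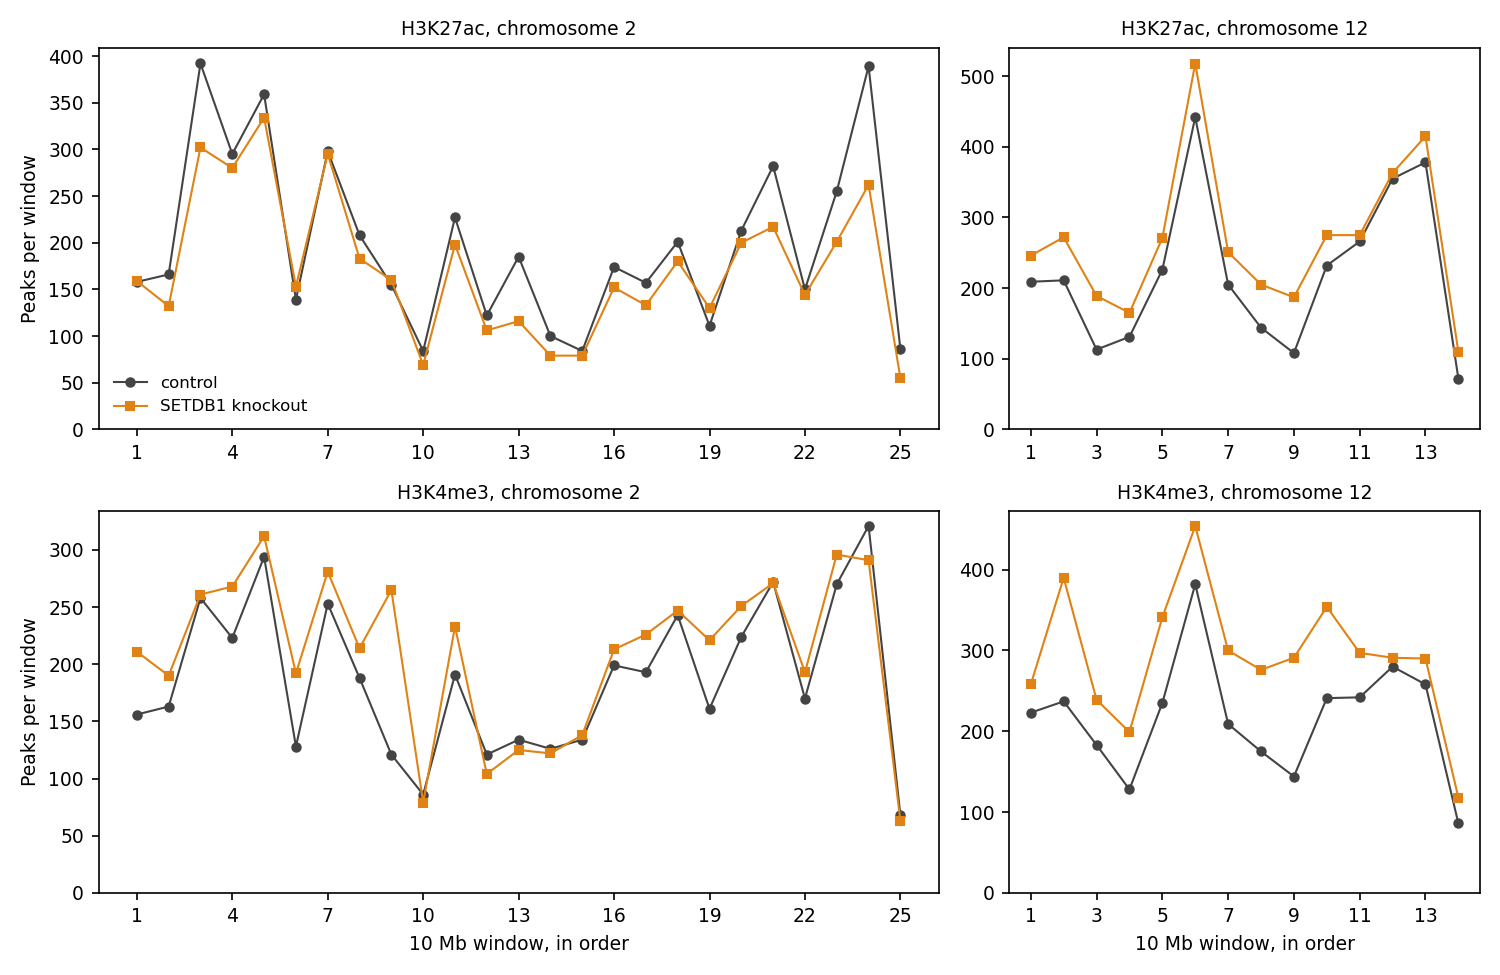
Number of peaks per 10 Mb window in the control (dark grey circles) and knockout (orange squares) lists, windows in order along chromosome 2 (left) and chromosome 12 (right), H3K27ac above and H3K4me3 below; the last window of each chromosome is shorter. Along chromosome 2 the knockout H3K27ac line lies below the control line in 21 of 25 windows, and along chromosome 12 above it in 14 of 14.

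Several windows stood out from their chromosome. The lowest H3K27ac window of chromosome 2 was 120 to 130 Mb (hg19), with 185 control and 116 knockout peaks and 390.8 and 212.7 kb covered. Much of this came from the bin at 121 to 122 Mb, with 68 and 20 peaks, and the log2 ratio moved from -0.67 to -0.29 without it. None of its 10 Hi-C bins of 100 kb changed compartment sign, and H3K9me3 peaks covered 9.86% of it in control and 0.032% in knockout. The end of chromosome 2 was low as a block: 389 and 262 H3K27ac peaks at 230 to 240 Mb and 86 and 55 at 240 to 243.2 Mb. In this block the H3K27ac length fell from 873.1 to 531.3 kb and from 160.4 to 98.8 kb.

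The highest H3K27ac windows of chromosome 2 were 180 to 190 Mb, with 111 control and 130 knockout peaks, and 50 to 60 Mb, with 139 and 153. Their intervals (-0.14 to 0.59 and -0.19 to 0.47) included 0 and the baseline of 0.12. These cover counting error only, so whether peak number changed there is not decided. At 180 to 190 Mb, 16 of 100 Hi-C bins went from negative to positive compartment sign and 2 the other way. For H3K4me3 the highest window of chromosome 2 was 80 to 90 Mb, with 121 and 265 peaks (log2 ratio 1.13, 0.82 to 1.44). Its bin at 82 to 83 Mb went from 1 to 62 H3K4me3 peaks, from 0.75 to 52.3 kb, while H3K9me3 coverage of the bin went from 54.7% to 4.07% and 6 of 10 Hi-C bins changed sign from negative to positive. Without that bin the window still had a log2 ratio of 0.76. The window 50 to 60 Mb was next, with 128 and 192 peaks. The lowest H3K4me3 windows of chromosome 2 were 110 to 120 Mb, with 121 and 104 peaks, and 230 to 240 Mb, with 321 and 291. Their intervals (-0.60 to 0.16 and -0.37 to 0.087) included 0 but lay below the baseline of 0.25. Relative to that baseline these windows were at -0.47 and -0.39. Against these, the 80 to 90 Mb window had more H3K4me3 on a chromosome that was low relative to the rest.

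On chromosome 12 the highest window of both marks was 80 to 90 Mb, with 108 and 187 H3K27ac peaks (log2 ratio 0.79, 0.45 to 1.13) and 144 and 291 H3K4me3 peaks (1.01, 0.73 to 1.30). All 10 of its 1 Mb bins had more H3K4me3 peaks in the knockout list. In it, 21 of 100 Hi-C bins went from negative to positive sign and 1 the other way. The second highest were 20 to 30 Mb for H3K27ac (113 and 189 peaks) and 10 to 20 Mb for H3K4me3 (237 and 390).

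The lowest window of chromosome 12 was 110 to 120 Mb for both marks, with 355 and 363 H3K27ac peaks and 280 and 291 H3K4me3 peaks. Within it the bin at 115 to 116 Mb went from 24 to 2 H3K27ac peaks and from 23 to 6 H3K4me3 peaks. The same bin changed compartment sign from positive to negative in 10 of 10 Hi-C bins, and H3K9me3 coverage went from 14.8% to 90.0%. This bin was lower in both active marks on a chromosome that was otherwise high; without it, the H3K27ac ratio of the window was 0.13. The second lowest were 100 to 110 Mb for H3K27ac, with 266 and 275 peaks, and 120 to 130 Mb for H3K4me3, with 258 and 290.

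Peaks present in both lists allowed a comparison that the number of peaks does not enter. Where 1 control peak overlapped exactly 1 knockout peak, the log2 ratio of their widths was taken. On chromosome 2, the median of 2649 H3K27ac pairs was -0.035 (95% interval of the median from order statistics, -0.053 to -0.015), the lowest of 22 autosomes, and on chromosome 12 the median of 1973 pairs was 0.21 (0.19 to 0.24), the highest. The 28237 pairs of the other autosomes had a median of 0.10. Knockout peaks were narrower in 53.1% of chromosome 2 pairs, 30.4% of chromosome 12 pairs and 39.4% of other pairs. In base pairs, the median width of paired peaks went from 1701 to 1647 bp on chromosome 2 and from 1533 to 1859 bp on chromosome 12.

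The windows repeated this. The median H3K27ac pair ratio was below the baseline of 0.11 in 25 of 25 chromosome 2 windows (52.3% of all windows) and above it in 13 of 14 chromosome 12 windows (47.7%). H3K4me3 pairs gave smaller ratios, -0.013 (-0.025 to -0.0026) over 3567 pairs on chromosome 2, 0.12 (0.10 to 0.14) over 2463 pairs on chromosome 12 and 0.047 on the other autosomes. Their windows were below the baseline in 21 of 25 cases on chromosome 2 (50.9%) and above in 13 of 14 on chromosome 12 (49.1%). Pairs are neighbours on 1 chromosome in 1 list, so they are not replicates.

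**Figure D3:**
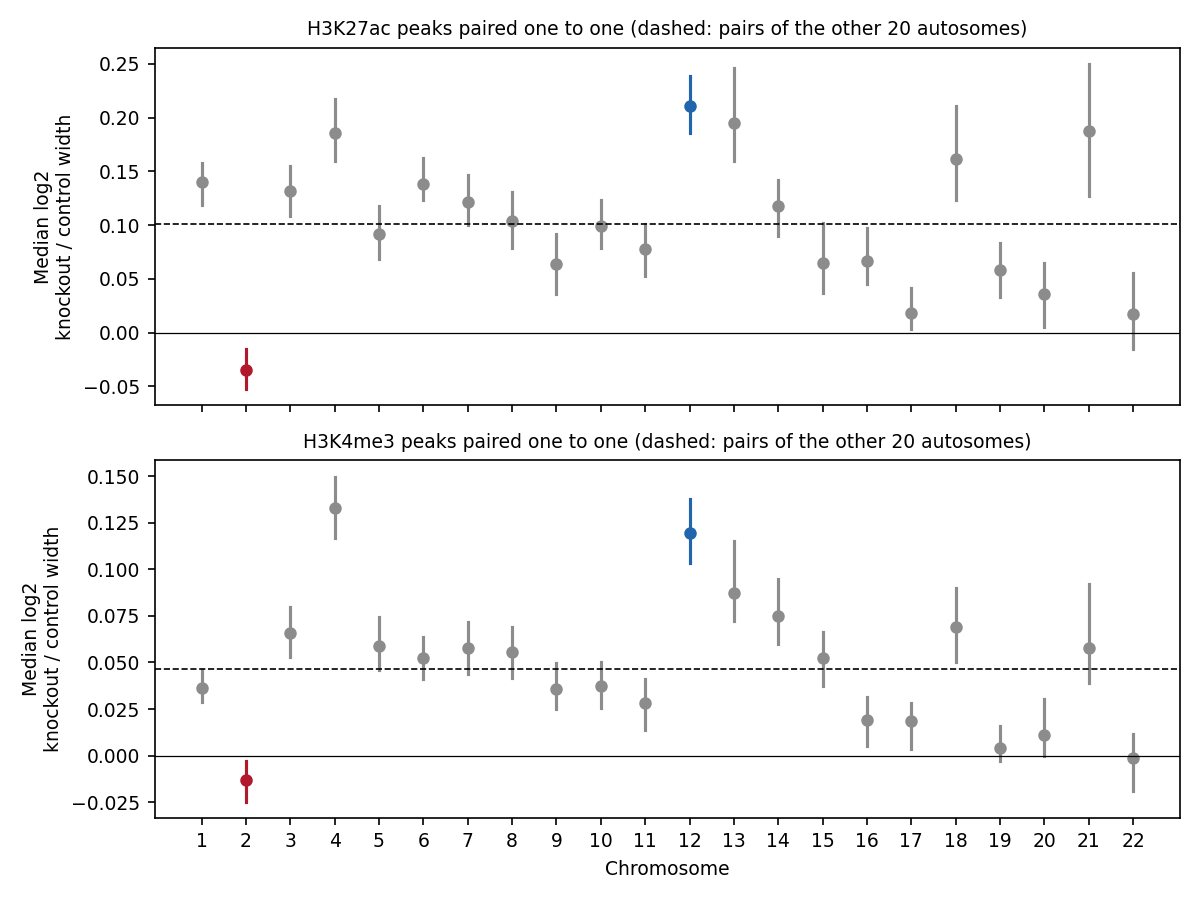
Median log2 ratio of knockout to control width of peaks paired one to one on each autosome, with the 95% interval of the median, for H3K27ac (top) and H3K4me3 (bottom); chromosome 2 is red and chromosome 12 blue. H3K27ac pairs of chromosome 2 sit at -0.035 and those of chromosome 12 at 0.21, around the dashed line of the other autosomes at 0.10.

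The unmatched medians of the lists showed less. H3K27ac peaks had a median width of 1361 bp in control and 1418 bp in knockout on chromosome 2, 1369 and 1463 bp on chromosome 12, and 1367 and 1439 bp on the other autosomes. H3K4me3 medians fell on chromosome 2 (1132 to 1042 bp), chromosome 12 (1146 to 1045 bp) and the rest (1156 to 1083 bp). By width, H3K27ac peaks of up to 864 bp, the narrowest quartile of the control list, had a number ratio on chromosome 2 of -0.39 (-0.51 to -0.27), against -0.13 (-0.24 to -0.010) for those over 2241 bp. On chromosome 12 the widest quartile had the highest ratio, 0.49 (0.35 to 0.62), and the narrowest 0.12 (-0.021 to 0.26). The other autosomes had the same order, -0.062 in the narrowest and 0.21 in the widest quartile.

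A peak was called shared when it overlapped a peak of the other genotype by at least 1 bp. On chromosome 2, 62.5% of control H3K27ac peaks (61.2% to 63.9%) were shared and 1870 were control-only, against 73.7% on the other autosomes. On chromosome 12, 78.4% (76.9% to 79.8%) were shared and 667 were control-only. Knockout peaks had the opposite order, with 74.6% shared on chromosome 2, 61.1% on chromosome 12 and 68.8% elsewhere. For H3K4me3, 80.4% of control peaks were shared on chromosome 2, 89.2% on chromosome 12 and 85.3% elsewhere, and 72.6%, 64.4% and 70.0% of knockout peaks.

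The widest members show both classes. The widest shared control H3K27ac peak of chromosome 2, chr2:36582045-36640692 (58.6 kb, hg19), overlapped 3 knockout peaks that together spanned 60.9 kb. The widest control-only H3K27ac peak of chromosome 2 was chr2:235938358-235946539 (8.18 kb), inside the low block near the chromosome's end, with no H3K4me3 peak on it. The widest knockout-only H3K27ac peak of chromosome 12 was chr12:87816681-87825317 (8.64 kb), inside the 80 to 90 Mb window, in a Hi-C bin that went from negative to positive sign. It overlapped an H3K9me3 peak in control and also in knockout. The widest knockout-only H3K4me3 peak of chromosome 2, chr2:86916150-86923465 (7.32 kb), overlapped an H3K9me3 peak in control and none in knockout.

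The H3K27ac difference on chromosome 2 lay mostly in peaks away from H3K4me3, the class that includes candidate enhancers. Chromosome 2 H3K27ac peaks without an H3K4me3 peak of the same genotype went from 2089 to 1201 (log2 ratio -0.80, -0.90 to -0.70), and those with one went from 2901 to 3118 (0.10, 0.031 to 0.18). On chromosome 12 the first class went from 1208 to 1247 (0.046, -0.068 to 0.16) and the second from 1884 to 2495 (0.41, 0.32 to 0.49). The other autosomes had -0.26 and 0.26, and the H3K4me3 list that defines the classes was larger in the knockout. In both classes chromosome 2 lay below the other autosomes and chromosome 12 above. Of chromosome 2 control peaks without H3K4me3, 31.6% (29.6% to 33.6%) were shared, against 55.6% on chromosome 12 and 45.8% elsewhere.

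H3K4me3 peaks were split by H3K27ac in the same way. With H3K27ac they went from 2956 to 3155 on chromosome 2 (0.094, 0.022 to 0.17) and from 1900 to 2577 on chromosome 12 (0.44, 0.35 to 0.53). Without it they went from 1741 to 2112 (0.28, 0.19 to 0.37) and from 1123 to 1521 (0.44, 0.33 to 0.55). The other autosomes had 0.27 and 0.32. On chromosome 2 the intervals of the classes did not overlap, and the peaks with H3K27ac had the lower ratio and lay further below the other autosomes.

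**Figure D4:**
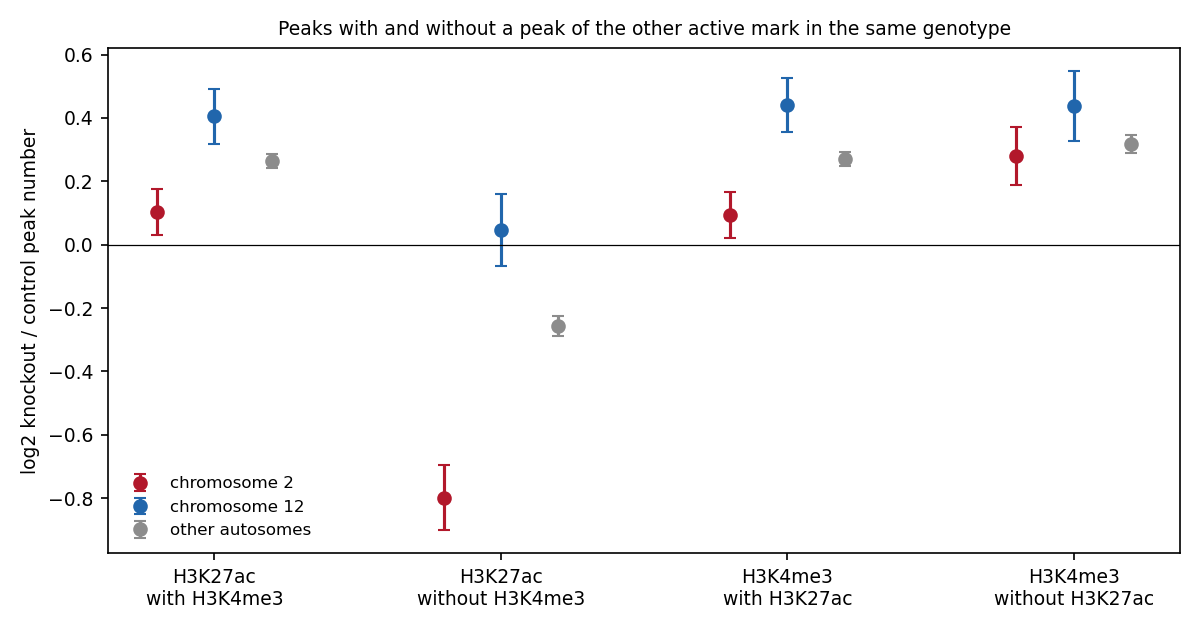
Log2 ratio of knockout to control peak number, with 95% Wilson intervals that cover counting error only, for peaks with and without a peak of the other active mark in the same genotype, on chromosome 2 (red), chromosome 12 (blue) and the other autosomes (grey). H3K27ac peaks without H3K4me3 on chromosome 2 have the lowest ratio, -0.80, and chromosome 12 lies above the grey points in each class.

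Repressive marks at the member peaks differed by class. Of knockout-only H3K4me3 peaks on chromosome 2, 24.5% overlapped a control H3K9me3 peak and 5.7% a knockout one; on chromosome 12 these were 17.9% and 3.7%, and on the other autosomes 20.3% and 4.8%. Shared knockout H3K4me3 peaks overlapped control H3K9me3 in 10.6% of cases on chromosome 2, 10.4% on chromosome 12 and 9.6% on the other autosomes. They overlapped knockout H3K9me3 in 1.2%, 1.0% and 1.4%. Knockout-only peaks thus had the higher share for H3K9me3 of either genotype. Knockout-only H3K4me3 peaks lay in bins that went from negative to positive compartment sign in 13.8% of cases on chromosome 2 and 15.9% on chromosome 12, against 2.0% and 5.6% of shared ones. On the other autosomes these were 15.6% of knockout-only and 2.4% of shared peaks. Most control H3K27ac peaks lay in positive bins on both chromosomes, 94.0% of shared peaks on chromosome 2 and 87.7% on chromosome 12, beside 90.1% elsewhere.

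Other lists of the series on the same chromosomes were read beside the active marks. CTCF, the insulator protein at loop anchors, went from 2733 to 2201 peaks on chromosome 2 (log2 ratio -0.31) and from 1249 to 2423 on chromosome 12 (0.96). The other 20 autosomes ran from 0.33 to 1.40, so chromosome 2 lay outside their range and chromosome 12 inside it. CTCF windows were below their baseline in 25 of 25 cases on chromosome 2 (52.1% of all windows) and above it in 13 of 14 on chromosome 12 (47.5%). H3K27me3 went from 7197 to 4651 peaks (-0.63) on chromosome 2 and from 4762 to 4133 (-0.20) on chromosome 12, beside -0.43 on the other autosomes. Its windows were below the baseline in 18 of 25 cases on chromosome 2 (51.6%) and above it in 8 of 14 on chromosome 12 (48.4%). H3K9me3 peaks went from 10416 to 4569 on chromosome 2 and from 5479 to 1941 on chromosome 12, while the length they covered went from 34.8 to 52.2 Mb and from 17.4 to 24.6 Mb. The log2 ratios were -1.19 for number and 0.58 for length on chromosome 2 and -1.50 and 0.50 on chromosome 12. The other autosomes, counted as a group, had -0.96 and 0.84, and both chromosomes lay below these group values. Among 22 autosomes ordered from the lowest H3K9me3 ratio, chromosome 2 was at place 12 for number and place 5 for length. Chromosome 12 was at places 6 and 4. The median number ratio of single other autosomes was -1.20, so chromosome 2 was not low among them in number. H3K9me3 windows were below their baseline in 12 of 25 cases on chromosome 2 and 12 of 14 on chromosome 12 (51.4%). Hi-C bins with a positive score in both replicates were 56.3% of 2287 in control and 53.1% in knockout on chromosome 2, 50.1% of 1271 and 54.1% on chromosome 12, and 54.7% and 54.6% elsewhere.

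Transcripts of the same chromosomes were measured in separate libraries. Genes of chromosome 2 took 8.29%, 8.10% and 8.10% of non-mitochondrial counts in the 3 control libraries and 5.65%, 5.52% and 5.56% in the 3 knockout libraries. Genes of chromosome 12 took 6.80%, 6.80% and 6.82% in control and 9.14%, 9.18% and 9.22% in knockout. Every knockout library lay below every control library for chromosome 2 and above for chromosome 12. The shares of other chromosomes were not computed, so how common such a separation is cannot be said. The RNA-seq contrast was also used to pick these chromosomes. Nothing in the labels says that the libraries came from separate cultures, so the p-values below measure only the spread between these libraries.

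Of 1049 chromosome 2 genes tested, 758 were lower and 97 higher at an adjusted p under 0.05 in edgeR's quasi-likelihood test, beside 30% lower and 32.8% higher of all 17767 genes; this contrast was used to pick the chromosomes. Of 854 chromosome 12 genes, 562 were higher and 72 lower. The median log2 fold change was -0.54 (quartiles -0.83 and -0.22) on chromosome 2, 0.37 (0.087 and 0.72) on chromosome 12 and 0.025 over 13196 genes of the other autosomes. Chromosome 2 had the lowest and chromosome 12 the highest median of 22 autosomes, and chromosome 19, which carries large clusters of zinc finger genes, was next to chromosome 12 with 0.34. Cut into stretches of 50 neighbouring genes, chromosome 2 had medians from -0.71 to -0.37 in 20 stretches and chromosome 12 from 0.22 to 0.54 in 17. Chromosome 19 also kept 1 direction, with 0 of 22 stretches below 0 and a lowest median of 0.029.

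**Figure D5:**
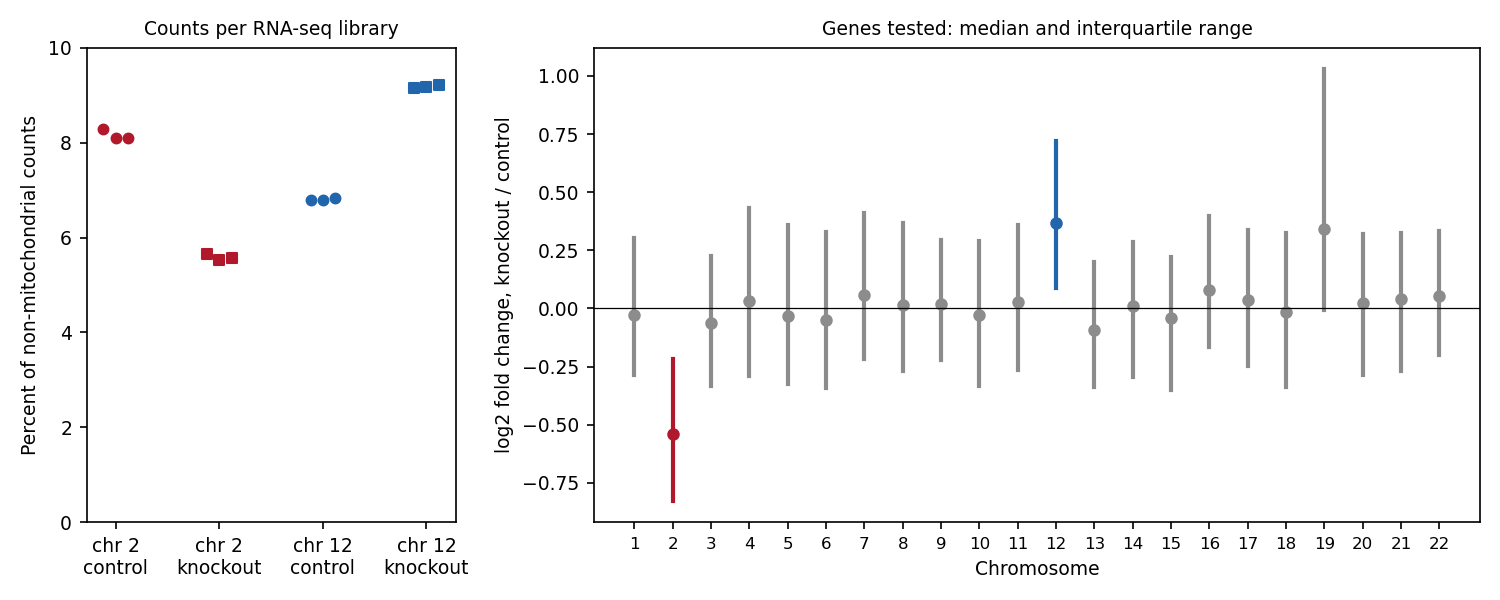
Left, percent of non-mitochondrial RNA-seq counts on genes of chromosomes 2 and 12 in each of 3 control and 3 knockout libraries; right, median and interquartile range of the log2 fold change of the genes tested on each autosome. Chromosome 2 falls from between 8.10% and 8.29% to between 5.52% and 5.65%, and its median fold change is -0.54; chromosome 12 rises to between 9.14% and 9.22%, with a median of 0.37.

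Constitutive genes along both chromosomes were listed as a group less tied to cell state. On chromosome 2, 39 of 39 members were lower, with a median of -0.74, where 72.3% of all tested genes of the chromosome and 30% of all 17767 genes were lower. CALM2, which encodes calmodulin, was at 1115, 965.4 and 1024 CPM in control and 561.4, 495.3 and 532.8 CPM in knockout (log2 fold change -0.97, SE 0.053, adjusted p = 1.7e-12). The chaperonin gene HSPD1 had a log2 fold change of -0.95, PTMA, encoding prothymosin alpha, -0.71, and the ribosomal protein gene RPS27A -0.69. The lowest were HSPE1, the co-chaperonin (-1.35), and MCM6, a subunit of the replicative helicase (-1.06), and the nearest to 0 were ODC1, ornithine decarboxylase (-0.25), and HADHB, a subunit of the mitochondrial trifunctional protein (-0.33).

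On chromosome 12, 23 of 36 constitutive genes were higher, 5 lower and 8 did not pass the test, with a median of 0.26, where 65.8% of all tested genes of the chromosome were higher and 8.43% lower, and 32.8% of all 17767 genes were higher. The glycolytic gene GAPDH was at 1755, 1843 and 1897 CPM in control and 2240, 2433 and 2433 CPM in knockout (log2 fold change 0.37, SE 0.043, adjusted p = 2e-08). RPLP0 and RPL6, genes of the large ribosomal subunit, had 0.26 and 0.36, and TPI1, triosephosphate isomerase, 0.19. The myosin light chain gene MYL6 was highest (0.70), followed by COX6A1 of cytochrome c oxidase (0.65). TUBA1B, an alpha tubulin (-0.22), and RAN, the nuclear transport GTPase (-0.15), were lower. Some of these genes have processed copies elsewhere in the genome that could share their reads.

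Single genes went far beyond the chromosome medians, in both directions. On chromosome 2 the largest falls were in DPYSL5, a dihydropyrimidinase-like protein of neurons (-3.97), TM4SF20, a tetraspan membrane protein (-3.85), ST6GAL2, a sialyltransferase (-2.59), KCNS3, a potassium channel subunit (-2.57), and FN1, which encodes fibronectin (-2.54). FN1 was at 486.4, 475.5 and 452.6 CPM in control and 84.1, 78.6 and 81.6 CPM in knockout. The largest rises on the same chromosome were in HNMT, histamine N-methyltransferase (4.92), PXDN, the matrix peroxidase peroxidasin (4.85), SGPP2, a sphingosine phosphate phosphatase (3.89), EPHA4, an ephrin receptor (3.79), and FAM110C (2.74). PXDN was at 2.68, 3.26 and 2.85 CPM in control and 80.5, 87.5 and 82.6 CPM in knockout. These rises stood against a chromosome where 84.9% of tested genes had a fold change below 0.

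On chromosome 12 the largest rises were in SLC16A7, a monocarboxylate transporter (6.15), NR1H4, the bile acid receptor FXR (5.44), NTS, the neuropeptide neurotensin (4.72), LINC01559, a long noncoding RNA (3.75), and LIMA1, an actin-binding protein (2.81). SLC16A7 was at 0.552, 0.662 and 0.584 CPM in control and 44.3, 41.8 and 41.3 CPM in knockout. The largest falls were in BCAT1, a branched-chain amino acid transaminase (-3.04), GRIN2B, an NMDA receptor subunit (-2.32), TBX3, a T-box transcription factor (-1.82), KRT81, a hair keratin with near-identical paralogs (-1.60), and ALDH1L2, a mitochondrial folate enzyme (-1.59). BCAT1 was at 87.0, 83.7 and 86.5 CPM in control and 11.3, 9.74 and 10.6 CPM in knockout. All 20 genes had an adjusted p under 0.05, and their libraries did not overlap by the rule that named them.

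Promoters of 4 of these genes, rich or poor in the dinucleotide CG, are shown as examples of both kinds among the genes that changed in the direction of their chromosome's median. They were picked for that direction, and named genes of both kinds also changed the other way, such as PXDN and HNMT on chromosome 2. Each run is the 250 bases before the start of the gene in RefSeq on GRCh38.p14, 5′ to 3′ on the gene's strand, with every CG in capitals; FN1 (chr2:215436069-215436318, minus strand) and TM4SF20 (chr2:227379307-227379556, minus strand) fell, and LIMA1 (chr12:50283521-50283770, minus strand) and SLC16A7 (chr12:59689120-59689369, plus strand) rose.
FN1: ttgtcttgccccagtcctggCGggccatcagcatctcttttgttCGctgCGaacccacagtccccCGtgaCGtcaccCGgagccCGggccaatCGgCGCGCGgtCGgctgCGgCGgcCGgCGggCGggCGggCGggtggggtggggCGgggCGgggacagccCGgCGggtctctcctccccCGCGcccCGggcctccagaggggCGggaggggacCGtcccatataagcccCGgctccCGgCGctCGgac
TM4SF20: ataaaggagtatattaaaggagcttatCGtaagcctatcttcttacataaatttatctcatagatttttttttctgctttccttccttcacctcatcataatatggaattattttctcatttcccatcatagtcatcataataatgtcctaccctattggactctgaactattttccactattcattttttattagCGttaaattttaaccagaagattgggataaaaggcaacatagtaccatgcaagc
LIMA1: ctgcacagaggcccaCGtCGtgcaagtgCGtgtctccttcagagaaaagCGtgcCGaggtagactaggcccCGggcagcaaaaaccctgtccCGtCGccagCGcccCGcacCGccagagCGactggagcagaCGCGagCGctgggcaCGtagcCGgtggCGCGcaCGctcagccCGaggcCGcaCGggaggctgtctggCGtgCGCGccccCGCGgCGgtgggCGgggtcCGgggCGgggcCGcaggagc
SLC16A7: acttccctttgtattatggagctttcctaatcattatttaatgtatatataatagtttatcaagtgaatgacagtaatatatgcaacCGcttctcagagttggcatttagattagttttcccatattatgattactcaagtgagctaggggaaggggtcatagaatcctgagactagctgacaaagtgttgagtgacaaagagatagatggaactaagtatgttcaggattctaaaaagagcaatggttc
They hold 32, 2, 33 and 1 CG, a motif that reads the same on both strands. Of 27305 promoters of this length, 93.6% hold at least 1, the median is 11, 12.2% hold 30 or more and 23.6% hold 2 or fewer. Promoter positions on this build were not joined to the peaks, which are on hg19.

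Fold changes were also read by promoter class. Protein-coding genes were cut into classes of up to 21, 22 to 31 and at least 32 CG in the promoter window of 300 bases, and 81.6% of those tested had an entry. On chromosome 2 the median fold changes were -0.50, -0.54 and -0.54 over 267, 225 and 287 genes, and 79.8%, 87.1% and 90.6% of the genes had a fold change below 0. On chromosome 12 they were 0.40, 0.35 and 0.37 over 202, 195 and 155 genes, and on the other autosomes 0.065, -0.022 and 0.052.

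No measurement of DNA copy number was used here. A difference in the dose of chromosomes 2 and 12 between the cell populations was not tested. The peak lists, gene counts and compartment scores used here cannot tell it apart from an effect of the SETDB1 mutation. The input libraries of the series were not used.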

How the data were processed

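The members and gene lists were chosen with earlier results of these data known. Peak lists were used as the authors deposited them, positions only and on hg19; the submitters' processing notes name STAR 2.6.1c, edgeR 3.30.0, Bowtie2 2.2.3, SAMtools 1.5, Picard and MACS2, and which of these called the peaks, its threshold and any pooling are not given in the sources used here. The compartment table held a signed score per 100 kb bin and replicate, as deposited by the authors; its method and orientation are not stated. Peaks were counted by midpoint in 10 Mb windows and covered length was clipped to the window; windows with under 20 peaks over both genotypes (14 of 261 on the other autosomes, 0 on chromosomes 2 and 12) were left out. A bin was positive or negative where both replicates agreed in sign. RNA-seq values were whole-number gene counts deposited by the authors, unnormalized. They were fitted with edgeR 4.0.16 in R 4.3.3 (TMM, filterByExpr, robust quasi-likelihood F-test, Benjamini-Hochberg over 17767 genes at 0.05). Of 62486 gene IDs, 58642 matched a symbol, and a RefSeq table placed 88.0% of tested genes on a chromosome and gave their order. Peak comparisons used Python 3.11.15, numpy 2.4.6, pandas 2.3.3 and scipy 1.17.1. The fits were tested on simulated data.

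Named windows were the 2 lowest and 2 highest per mark and chromosome; the 230 to 240 Mb H3K27ac window and single 1 Mb bins were added after their values were seen. Named peaks were the widest of each class, of which some are printed. Named genes were the 5 largest changes each way on each chromosome with an adjusted p under 0.05, a mean of at least 5 CPM, at least 10 counts in the lower genotype and no overlap of libraries, and, of the constitutive genes, the 4 with the highest CPM and the 2 at each end of fold change. Alternatives were other widths, merging, windows, baselines, overlap rules, scalings, filters, DESeq2 1.42.0, a replicate block and leaving out each library. Input libraries were not used here, and genes were not joined to windows.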

Additional observations from a re-analysis of the deposited data

How the results depend on the processing

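Of 576 values recomputed under alternatives, 396 for named genes and 150 others kept their direction and call, 0 reversed and 30 moved; the cause was not tested. With a reciprocal overlap of 50%, shared H3K27ac control peaks were 48.7% on chromosome 2 and 56.9% on chromosome 12 and knockout peaks 56.3% and 47.0%; for H3K4me3 these were 72.7%, 78.3%, 64.9% and 57.8%, and the H3K27ac pair width of chromosome 12 was 0.16. With the wider 50% of each list the H3K27ac shares were 66.2%, 83.3%, 78.0% and 63.7% and the H3K4me3 shares 84.4%, 92.3%, 77.5% and 68.9%, and pair widths were 0.16 for H3K27ac on chromosome 12 and -0.030 and 0.073 for H3K4me3 on chromosomes 2 and 12. Merging peaks within 1 kb gave 64.7% of control H3K27ac peaks shared on chromosome 2 and 62.8% of knockout peaks on chromosome 12. In windows of 20 Mb, H3K27ac was below the baseline in 100% of chromosome 2 windows in number and in length, and in 0% of chromosome 12 windows in length. Against windows of the same peak number class, added after seeing the data, it was below in length in 100% on chromosome 2, and in number and length in 0% on chromosome 12. With mitochondrial genes included, the share of RNA-seq counts differed by -1.94 percentage points on chromosome 2 and 1.90 on chromosome 12.

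Same-numbered RNA-seq libraries had deviations correlated at 0.11, 0.064 and 0.047, so the numbers were not taken as pairing; with a replicate block, 771 chromosome 2 genes were lower and 580 chromosome 12 genes higher. Leaving out each library in turn gave 733 to 760 lower genes on chromosome 2 and 543 to 568 higher on chromosome 12. Peak lists without replicates and of unknown depth limit every peak ratio to counting error. The intervals of peak number also treat the 2 lists as separate counts, though many peaks overlap between them. Whether such intervals overlap each other or include 0 is a description only.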
